A study of Homo sapiens with 6 samples.

Results

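Interferon-stimulated genes are the genes that cells switch on when interferon binds its receptors. A fixed list of 49 such genes was looked up by gene ID among the 24726 probe sets (23931 named genes) of an Affymetrix array study, and 48 of the 49 were measured. STAT2 was not analysed here, and DDX58 carried its current symbol RIGI. The samples were 6 tumours of Huh7, an established human hepatocellular carcinoma line, grown under the skin of nude mice, which lack a thymus and so most T cells but keep macrophages and NK cells. In 3 tumours the cells carried a plasmid encoding isoform A of the human insulin receptor with a GFP marker (IR-A). The other 3 came from cells with the empty vector (control). Per the series design, G418 resistance and GFP in cytometry were the selection. The labels name no clone, mouse, litter or batch, so the p-values rest on the spread among these 6 tumours, part of which may be technical.

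Interferons signal through paired receptors and the JAK kinases to a complex of STAT proteins and IRF9, which binds the interferon-stimulated response element (ISRE) in target promoters. Interferon gamma acts mainly at another promoter element, called GAS. The products block viruses at entry, RNA copying, translation and release, and hepatocytes are among the cells that respond. Several of these genes are also induced without interferon, by IRF1 or by other STAT proteins.

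The values are log2 signals, so a difference of 1 is a doubling of signal, and INSR itself differed by 2.95 (IR-A minus control), with IR-A arrays at 10.65 to 11.31 and control arrays at 7.61 to 8.47. Markers of Huh7 and hepatocytes were strong, with AFP between 12.38 and 12.74 and ALB between 12.82 and 13.09 over the 6 arrays. Of 10 such markers, 5 (APOA1, APOB, FGB, GPC3 and TF) had an unadjusted p under 0.05 and IR-A tumours above all controls. The list median was 0.27. Of all probe sets, 7.1% were higher at that p and 7.73% had IR-A tumours above all controls. Each share was 12.2% among probe sets with a signal above the median probe set. APOB differed by 0.42 (SE 0.14) and TF by 0.35 (SE 0.12). The part of these tumour cell markers in the differences of interferon-stimulated genes was not tested. Over all probe sets, control tumour 2 was closer to the other group than to its own. It correlated at 0.982 and 0.981 with the other controls and at 0.984 to 0.989 with the IR-A tumours. With 3 tumours a group, the smallest p of an exact permutation test is 0.1.

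Interferon-stimulated genes mostly had higher signal in IR-A tumours, with the largest differences in IFITM3, IFITM2 and IFI6. IFITM3 was 5.65-fold, IFITM2 4.41-fold and IFI6 3.58-fold higher by their mean log2 signals, while familiar members such as ISG15, IFI27 and RSAD2 had differences of -0.14, -0.13 and -0.11. IFI27 and RSAD2 were dim, below the median probe set on every array. Of 48 genes, 37 had a difference above 0 (44.0% of all probe sets did), and the median was 0.36, against -0.03 over all probe sets. No gene passed limma's test at an adjusted p of 0.05, and neither did any probe set (0.0%). At an unadjusted p under 0.05, 20 of the 48 were higher (41.7%, against 7.1% of all probe sets) and 0 were lower (7.03% of all probe sets). The 3 IR-A tumours lay above all 3 controls in 17 genes (7.73% of all probe sets did so), and below them in 0 (9.45%). The list was chosen with earlier results of these data known. The counts at an unadjusted p and of separate groups were added after the data were seen. All these shares are therefore descriptions and no test of the list. Without IR-A tumour 1, the number at an unadjusted p under 0.05 was 10 (20.8%, against 4.08% of all probe sets), and the median was 0.21. The number was 13 without control tumour 1 (4.40% of all probe sets), 12 without control tumour 3 (5.56%) and 22 without control tumour 2 (10.3%), with 1 gene lower in each of the last pair of settings. Without IR-A tumour 2, 27 genes lay higher without overlap and 1 lower, and the share of all probe sets that lay higher was then 11.8%. A count of separate groups cannot fall when a tumour is left out. The tumours are bulk samples, so fewer cells of a type and less RNA per cell cannot be told apart.

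**Figure D1:**
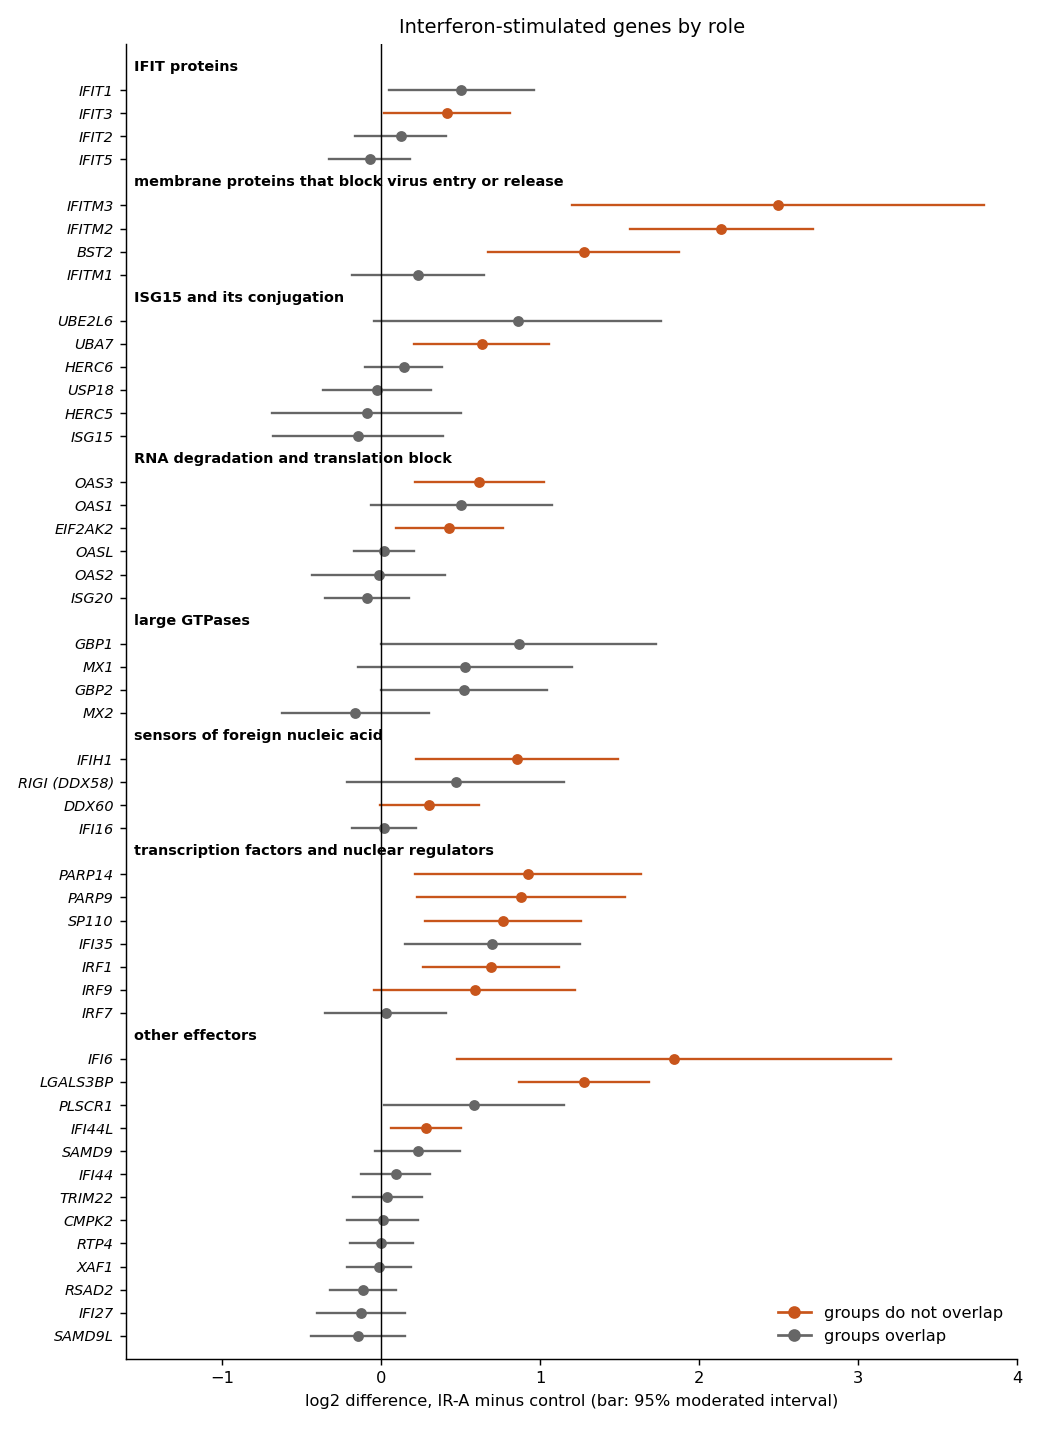
The horizontal axis is the log2 difference, IR-A minus control, for each of the 48 measured genes, grouped by role; bars are 95% moderated intervals and orange marks the 17 genes whose groups did not overlap. IFITM3, IFITM2 and IFI6 lie farthest to the right, and no gene lies left of -0.16.

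The IFITM proteins sit in cell membranes and hinder the fusion of enveloped viruses. IFITM3, which acts in endosomes, read 7.89, 10.24 and 8.85 in control tumours 1, 2 and 3 and 11.66, 11.35 and 11.46 in IR-A tumours 1, 2 and 3. The IR-A arrays lay close together and above every control, while the controls spread over more than 2 log2 units with control tumour 2 nearest to the IR-A group. The difference was 2.50 (SE 0.54, 95% interval 1.20 to 3.79, limma adjusted p = 0.155). Without control tumour 2 it was 3.12 and passed the threshold (limma adjusted p = 0.0261; 0.0261 to 0.479 over all alternative settings).

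IFITM2, a close relative of IFITM3, read 5.08, 5.76 and 5.44 in control and 7.90, 7.17 and 7.62 in IR-A tumours. The groups were well separated, and control tumour 2 was again the highest control. The difference was 2.14 (SE 0.24, 95% interval 1.56 to 2.71, limma adjusted p = 0.0932), the smallest p of the 48 genes. It passed the threshold without control tumour 2 (limma adjusted p = 0.0306) and without the dimmest 25% (0.0471) or 50% (0.0350) of probe sets. In those settings 308, 14 and 20 probe sets passed, against 0 in the main fit. The limma adjusted p of IFITM2 ran from 0.0306 to 0.442 over all alternative settings. IFITM1, the third family member on the array and mainly a protein of the cell surface, lay at 3.97 to 4.16 in control and 4.09 to 4.69 in IR-A tumours, with a difference of 0.23 (SE 0.17; 0.05 without IR-A tumour 1) and overlapping groups. The 3 genes are related, and whether their probe sets separate them is not known. The division of signal between IFITM2 and IFITM3 is therefore uncertain. Without all 3 of them, 18 of 45 genes were higher at an unadjusted p under 0.05 (40%, against 7.1% of all probe sets) and the median was 0.30.

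BST2, also called tetherin, holds budding viruses at the cell surface. It read 3.16, 3.47 and 3.83 in control and 5.24, 4.58 and 4.47 in IR-A tumours, so all IR-A arrays were higher, from a control signal below the median probe set (4.71). The difference was 1.27 (SE 0.25, 95% interval 0.67 to 1.88, limma adjusted p = 0.147). For each of IFITM3, IFITM2 and BST2 the exact two-sided permutation p was 0.1, the smallest possible.

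**Figure D2:**
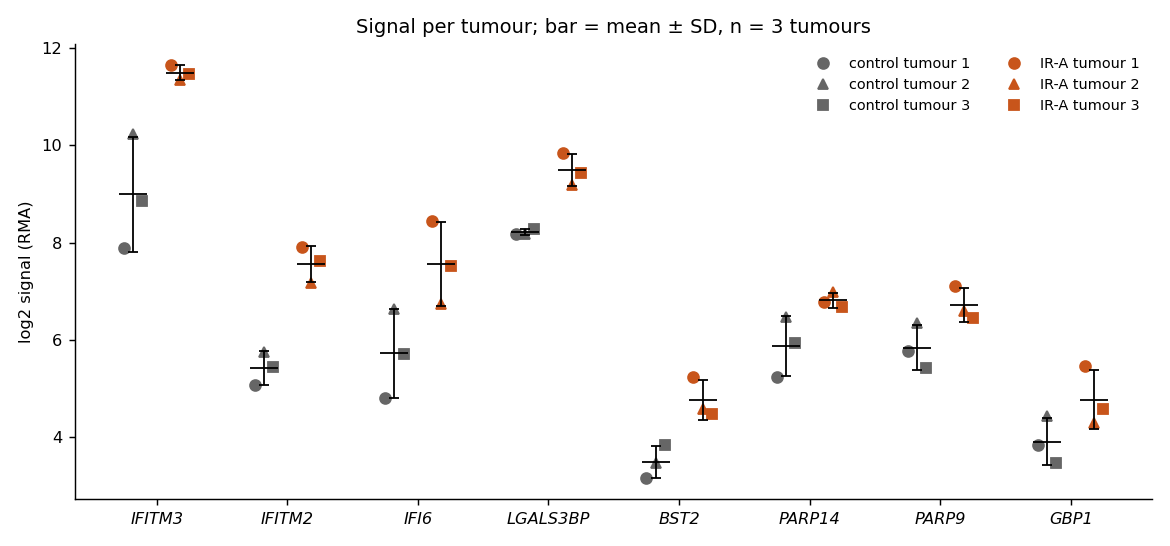
The vertical axis is the log2 signal of the 8 genes described in full, with a symbol for each tumour (grey control, orange IR-A) and bars for the mean ± SD of 3 tumours. Groups are separate in 7 genes and overlap in GBP1, and control tumour 2 is the highest control in IFITM3, IFITM2, IFI6, PARP14, PARP9 and GBP1.

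IFI6, a mitochondrial and endoplasmic reticulum protein that protects cells from death and blocks flavivirus replication, had the largest SE of the 48 genes. It read 4.81, 6.64 and 5.71 in control and 8.44, 6.73 and 7.51 in IR-A tumours. The lowest IR-A array, tumour 2, was barely above control tumour 2. The difference was 1.84 (SE 0.57, 95% interval 0.48 to 3.20, limma adjusted p = 0.242). LGALS3BP, a secreted glycoprotein that binds galectins, behaved differently in its controls, which were nearly equal. It read 8.18, 8.18 and 8.28 in control and 9.85, 9.19 and 9.44 in IR-A tumours, a difference of 1.28 (SE 0.17, 95% interval 0.87 to 1.69, limma adjusted p = 0.121). The exact permutation p was 0.1 for both genes.

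The promoters of these leading genes are shown beside those of 3 members that were not higher, since both sets hold the motif through which interferon acts. RefSeq promoter windows (GRCh38.p14, from 250 bases before to 50 after each start) were found for 38 of the 48 genes; IFITM2 was among those without one. Each was searched on both strands for the ISRE core, which reads GAAA, any 2 bases, GAAA, matches allowed to overlap. From each window shown, a stretch of 100 bases that lies before the start is printed 5′ to 3′ along the gene's strand, with matches on either strand in capitals.
IFITM3, chr11:320861-320960, minus strand: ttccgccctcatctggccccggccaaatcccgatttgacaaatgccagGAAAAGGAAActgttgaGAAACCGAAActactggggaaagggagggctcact
BST2, chr19:17405681-17405780, minus strand: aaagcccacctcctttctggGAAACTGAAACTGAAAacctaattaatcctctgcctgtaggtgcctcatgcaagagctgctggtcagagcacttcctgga
LGALS3BP, chr17:78979924-78980023, minus strand: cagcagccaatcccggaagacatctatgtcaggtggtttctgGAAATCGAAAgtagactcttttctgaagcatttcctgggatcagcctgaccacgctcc
IFI6, chr1:27672269-27672368, minus strand: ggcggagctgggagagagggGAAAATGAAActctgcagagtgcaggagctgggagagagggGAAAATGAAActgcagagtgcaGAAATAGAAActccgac
ISG15, chr1:1013364-1013463, plus strand: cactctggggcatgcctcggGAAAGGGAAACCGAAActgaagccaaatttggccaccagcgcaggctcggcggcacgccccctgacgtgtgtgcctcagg
IFI27, chr14:94110608-94110707, plus strand: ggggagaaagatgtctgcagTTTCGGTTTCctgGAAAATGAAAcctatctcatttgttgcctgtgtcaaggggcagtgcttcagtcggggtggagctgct
RSAD2, chr2:6877612-6877711, plus strand: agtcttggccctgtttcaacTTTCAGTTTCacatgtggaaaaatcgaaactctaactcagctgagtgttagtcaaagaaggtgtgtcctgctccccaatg

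The higher genes IFITM3, BST2 and IFI6 have 2, 2 and 3 matches in these stretches and LGALS3BP has 1. Of the genes that were not higher, ISG15 has 2, IFI27 has 2 and RSAD2 has 1. IFI27 and RSAD2 lay below the median probe set on every array, so their small differences do not show equal transcripts. In BST2 and in ISG15 the 2 matches overlap. Over the list, 26 of 38 genes (68.4%) had an ISRE core in a window, against 4.38% of all 27305 genes in the table (3.57% of 35116 promoters). The median difference was 0.42 in the 26 genes with a match and 0.49 in the 12 without. The groups did not overlap, with IR-A higher, in 12 and 3 of them (against 7.73% of all probe sets). The GAS motif TTCNNNGAA, which reads the same on both strands, lay in a window of 12 of 38 genes (31.6%), against 9.38% of all genes (7.66% of promoters). The median difference was 0.59 with it and 0.26 without. A match is a description of letters and not a binding site.

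**Figure D3:**
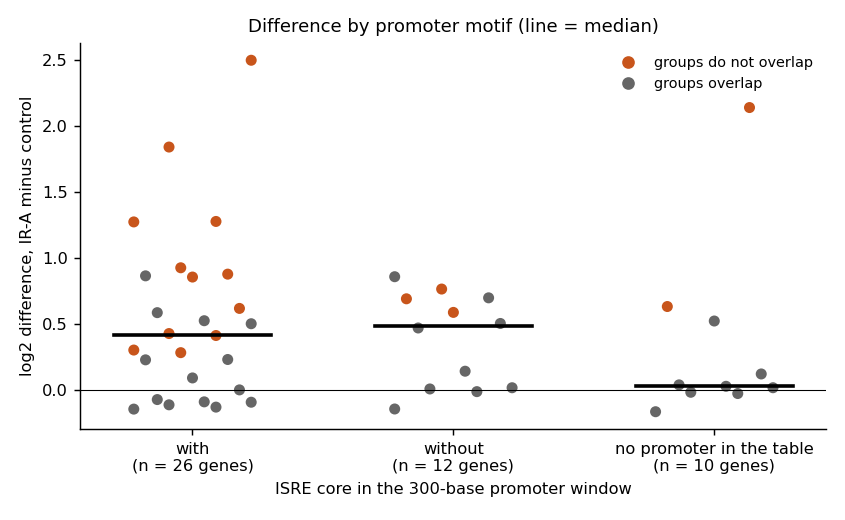
The vertical axis is the log2 difference, IR-A minus control, for genes with an ISRE core in a promoter window, without one, or with no window in the table; lines are medians and orange marks groups that did not overlap. The 26 genes with a match span -0.14 to 2.50 and the 12 without span -0.14 to 0.86.

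Transcription factors and nuclear regulators of the response had all 7 measured genes above 0, with a median of 0.70. At an unadjusted p under 0.05, 5 of the 7 were higher (against 7.1% of all probe sets). PARP14, an ADP-ribosyltransferase that tunes STAT signalling, read 5.24, 6.47 and 5.94 in control and 6.77, 6.98 and 6.68 in IR-A tumours. Its partner PARP9, which acts in a complex with the ubiquitin ligase DTX3L, read 5.77, 6.34 and 5.42 in control and 7.12, 6.59 and 6.46 in IR-A tumours. Control tumour 2 was the highest control in both, 0.21 below the lowest IR-A array in PARP14 and 0.12 below it in PARP9. The differences were 0.93 (SE 0.30) for PARP14 and 0.88 (SE 0.27) for PARP9, with limma adjusted p values of 0.254 and 0.243. Without control tumour 1 the PARP14 difference was 0.61.

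IRF1, a transcription factor that drives many of these genes on its own, read 4.06, 3.88 and 4.05 in control and 5.08, 4.47 and 4.52 in IR-A tumours, a difference of 0.69 (SE 0.18). Its controls were tight, and control tumour 2 was the lowest of them. IRF9, the DNA-binding part of the interferon-activated STAT complex, read 5.34, 6.18 and 6.11 in control and 6.81, 6.21 and 6.39 in IR-A tumours. The groups were separated by only 0.02, and the difference of 0.59 was 0.32 without control tumour 1. The nuclear body protein SP110 differed by 0.77 (SE 0.21) without overlap and IFI35, a leucine zipper protein, by 0.70 (SE 0.23) with overlap. IRF7, the factor that amplifies interferon alpha production, differed by 0.03 (SE 0.16). Limma adjusted p values in this group began at 0.190, for IRF1.

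Sensors of foreign nucleic acid were also all above 0, but unevenly. IFIH1 (MDA5), the sensor of long double-stranded RNA, read 3.26, 3.27 and 3.04 in control and 4.68, 3.78 and 3.69 in IR-A tumours, with IR-A tumour 1 well above the rest. Its difference of 0.86 (SE 0.27) was 0.54 without that tumour. DDX60, a helicase that supports RNA sensing, differed by 0.30 without overlap, or 0.17 without IR-A tumour 1. RIGI, the sensor of short double-stranded RNA ends, differed by 0.47 (SE 0.28) with overlap, or 0.19 without control tumour 3, and the DNA sensor IFI16 by 0.02, at a signal near 3 on every array. Limma adjusted p values began at 0.243, for IFIH1.

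Effectors that degrade viral RNA or stop translation were split. OAS3, which makes the 2-5A messenger that activates RNase L, differed by 0.62 (SE 0.17) and EIF2AK2 (PKR), the kinase that halts translation on double-stranded RNA, by 0.43 (SE 0.14), both without overlap. OAS1 differed by 0.51 (SE 0.24) with overlap. OAS2, between 2.98 and 3.59 on all arrays, differed by -0.02, and OASL (0.02) and the exonuclease ISG20 (-0.09) likewise lay near 0. Limma adjusted p values began at 0.208, for OAS3.

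The IFIT proteins bind foreign or uncapped RNA. IFIT1 differed by 0.50 (SE 0.19) with overlap and IFIT3 by 0.41 (SE 0.16) without it, both from control signals between 2.59 and 3.37. Without IR-A tumour 1 the IFIT3 difference was 0.28. IFIT2 (0.12) and IFIT5 (-0.07) overlapped. The lowest adjusted p in the family was 0.317, in limma.

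Among the large GTPases, which trap viral particles or attack vacuoles, no gene separated the groups. GBP1 read 3.83, 4.43 and 3.46 in control and 5.46, 4.28 and 4.57 in IR-A tumours. IR-A tumour 2 lay below control tumour 2, and the difference of 0.87 (SE 0.36, 95% interval 0.00 to 1.73, limma adjusted p = 0.354, exact permutation p = 0.2) was 0.52 without IR-A tumour 1. GBP2 differed by 0.52 (SE 0.22), or 0.33 without IR-A tumour 1. MX1, among the most used reporters of interferon alpha, read 3.60, 3.65 and 3.55 in control and 4.78, 3.61 and 3.99 in IR-A tumours. Only tumours 1 and 3 were above the controls, and the difference of 0.53 was 0.20 without IR-A tumour 1. MX2 differed by -0.16 (SE 0.19).

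ISG15 is a ubiquitin-like protein that is attached to other proteins by its own enzymes. ISG15 itself read 6.92, 6.35 and 7.25 in control and 6.74, 6.75 and 6.60 in IR-A tumours, a difference of -0.14 (SE 0.22, 95% interval -0.68 to 0.39). The interval does not exclude a lower signal as large as the UBA7 difference that follows. Its activating enzyme UBA7 read 4.03, 4.26 and 4.29 in control and 5.19, 4.59 and 4.69 in IR-A tumours, a difference of 0.63 (SE 0.18) without overlap. Its conjugating enzyme UBE2L6 differed by 0.86 (SE 0.38). Control tumour 1 (5.84) was far below every other array (7.03 to 7.73), and without it the difference was 0.41. The ligases HERC5 (-0.09) and HERC6 (0.14) and the ISG15-removing protease USP18 (-0.02) overlapped between groups. Limma adjusted p values for these 6 genes began at 0.213, for UBA7.

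The remaining effectors mostly had small differences. PLSCR1, a membrane protein that limits virus entry, differed by 0.59 (SE 0.24) with overlap, or 0.37 without control tumour 3, and IFI44L by 0.28 (SE 0.09) without it, at 3.03 to 3.09 in control and 3.28 to 3.46 in IR-A tumours. RSAD2 (viperin), which makes a chain-terminating nucleotide, differed by -0.11 (SE 0.09) and lay between 3.67 and 3.86 on all arrays. IFI27 differed by -0.13 (SE 0.12) at 3.18 to 3.56. CMPK2, XAF1, TRIM22, RTP4 and IFI44 lay between -0.01 and 0.09, SAMD9 at 0.23 and SAMD9L at -0.14. In 6 of the 48 genes (OASL, ISG20, IFI16, XAF1, TRIM22 and RTP4) at least 3 arrays carried the identical value, against 7.93% of all probe sets.

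**Figure D4:**
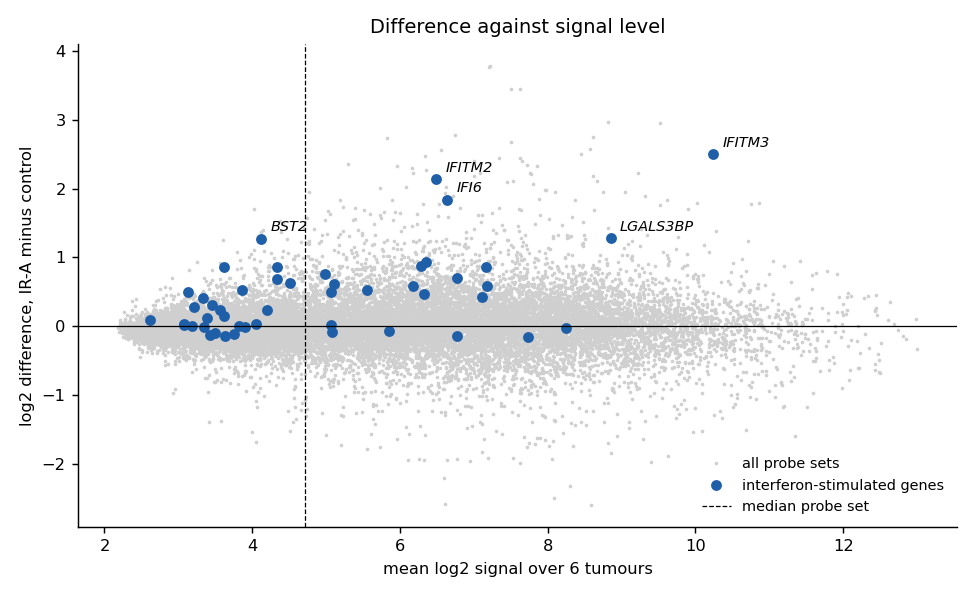
The horizontal axis is the mean log2 signal over 6 tumours and the vertical axis the log2 difference, IR-A minus control; grey dots are all 24726 probe sets, blue dots the 48 interferon-stimulated genes, and the dashed line is the median probe set at 4.71. Most blue dots lie above 0, and those with a difference above 1, BST2 apart, lie right of the dashed line.

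The size of the differences varied with signal level, but the share above 0 did not. It was 77.3% in members above the median probe set and 76.9% in those below, against 50.2% and 37.8% of all probe sets at those levels. Of the 48 genes, 22 had a mean above the median probe set, and their median difference was 0.59, with 12 higher at an unadjusted p under 0.05 (54.5%, against 12.2% of all probe sets above that level). The 26 dimmer genes had a median of 0.13, with 8 higher (30.8%, against 2.04% of all dimmer probe sets). RMA compresses differences of dim probe sets, so a value near 0 in a dim gene does not show that its transcript was equal.

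Single tumours shaped the pattern within groups. The mean over the 48 genes was 4.65, 4.91 and 4.71 in control tumours 1, 2 and 3 and 5.40, 5.07 and 5.17 in IR-A tumours 1, 2 and 3. IR-A tumour 1 had the highest IR-A value in 32 of 48 genes (66.7%), against 29.4% of all probe sets. Control tumour 2 had the highest control value in 24 of 48 (against 31.4% at all signal levels), and in 16 of the 22 genes above the median probe set. Over all probe sets above the median, control tumour 2 also had the highest control mean (7.07, against 6.97 and 6.98). IR-A tumour 1 had the highest IR-A mean there (7.07). Among dimmer probe sets the same tumours had the lowest means of their groups (3.43 and 3.42). The part of this array-wide order in the counts was not tested. The counts are descriptions, as genes of a response are not independent of each other.

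**Figure D5:**
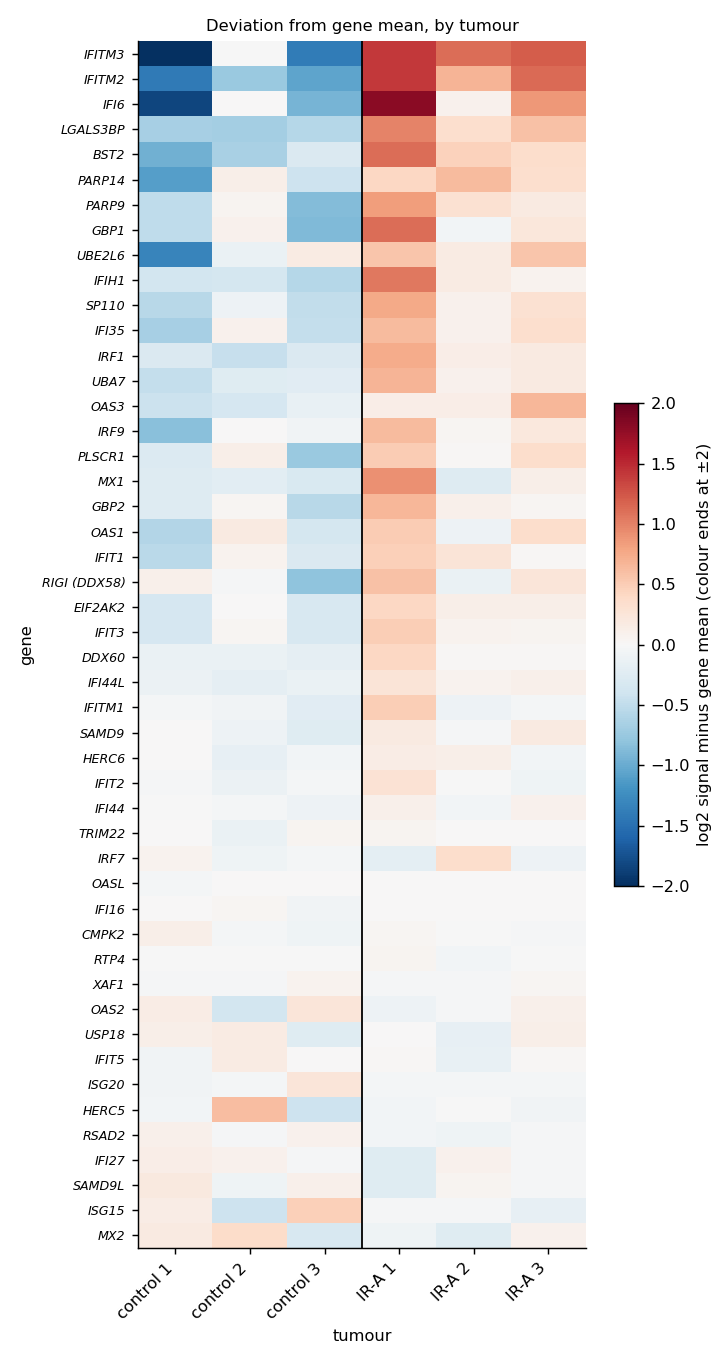
Rows are the 48 genes ordered by difference, columns the 6 tumours, and colour the log2 signal minus the gene's mean over all tumours, with the scale ending at ±2. Red is concentrated in IR-A tumour 1 and in the upper rows, control tumour 2 is paler than the other controls there, and the lower rows show little colour in any tumour.

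Other genes of the pathway were read from lists of ligands, receptors, kinases, sensors, regulators and further induced genes, 68 measured genes in all. None passed limma's test at an adjusted p of 0.05, and at an unadjusted p under 0.05 there were 12 higher (17.6%, against 7.1% of all probe sets) and 1 lower. Of 11 interferon genes, 10 lay below the median probe set, and their tumour means ran from 3.13 to 3.24 in control and 3.11 to 3.15 in IR-A tumours. Their differences ran from -0.38 for IFNA2 (SE 0.10) to 0.07 for IFNB1, with IFNA5 at -0.13 (SE 0.11). All 6 receptor chains were above 0 (median 0.34), with 2 at an unadjusted p under 0.05, IFNGR2 (0.53, SE 0.20; 0.32 without control tumour 1) of the interferon gamma receptor and IFNLR1 (0.27, SE 0.10) of the interferon lambda receptor.

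Downstream of the receptors, STAT3, which carries signals of the interleukin-6 family, read 7.27, 7.80 and 8.13 in control and 8.83, 8.67 and 8.67 in IR-A tumours. The IR-A arrays were tightly grouped above all controls, a difference of 0.99 (SE 0.21, limma adjusted p = 0.155). JAK2 differed by 0.51 (SE 0.15), JAK1 by 0.38 (0.23 without IR-A tumour 2) and TYK2 by 0.10, all without overlap, although the TYK2 groups nearly touched.

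Among 11 genes of sensing upstream of interferon, 2 were higher at an unadjusted p under 0.05 (18.2%, against 7.1% of all probe sets). TLR3, the endosomal receptor of double-stranded RNA, read 3.01, 3.49 and 3.26 in control and 4.63, 4.25 and 4.14 in IR-A tumours, a difference of 1.08 (SE 0.18, limma adjusted p = 0.131). TRIM25, the ubiquitin ligase that activates RIGI, differed by 0.28 (SE 0.12). The list had a median of -0.01, and the DNA sensor CGAS differed by -0.55, or -0.24 without control tumour 1, with the groups only 0.02 apart. Negative regulators had a median of 0.03, with 1 of 8 higher at an unadjusted p under 0.05, the phosphatase PTPN1 (0.31, SE 0.12), while the feedback inhibitor SOCS1 differed by -0.41 (SE 0.19), or -0.21 without control tumour 2. Of 28 further induced genes, 4 were higher at an unadjusted p under 0.05, among them the antibody receptor and ligase TRIM21 (0.44, SE 0.10) and the nuclear body protein SP100 (0.86, SE 0.23), and the median was 0.13.

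Host mouse cells could add signal where their RNA binds to human probes. Of 12 macrophage markers, 2 were higher at an unadjusted p under 0.05, TYROBP (1.78, SE 0.29) and CD68 (0.62, SE 0.21). Over all probe sets 7.1% were higher at that p, the share to set beside each list of markers here. The mean of the 12 macrophage markers was 4.59 to 4.61 in control and 4.70 to 4.81 in IR-A tumours. Their median difference was -0.003, with 6 of 12 below 0, among them CD14 (-0.24, SE 0.13) and FCGR3A (-0.19, SE 0.47). CD14, CD163, CSF1R and MRC1 lay below the median probe set on every array. Of 9 fibroblast markers, 3 were higher, led by LUM (1.26, SE 0.15) and COL1A2 (0.83, SE 0.20). PDGFRA lay the other way (-0.87, SE 0.57), at 7.86, 6.31 and 5.43 in control and 5.77, 5.40 and 5.83 in IR-A tumours, and without control tumour 1 its difference was -0.21. The fibroblast list had means of 4.37 to 4.73 in control and 4.75 to 4.87 in IR-A tumours, and DCN lay at 2.56 to 2.58 throughout. Of 10 lymphocyte and NK cell markers 0 and of 7 endothelial markers 1 (PECAM1, 0.51; 0.34 without IR-A tumour 1) was higher. CD79A differed by -0.28 (SE 0.13), CD2 by -0.17 (SE 0.10) and KDR by -0.07 (SE 0.09). The lymphocyte means were 4.01 to 4.29 in control and 3.97 to 4.16 in IR-A tumours, and the endothelial means 3.93 to 4.04 and 4.02 to 4.02. PTPRC, which marks all leukocytes, lay at 2.84 to 2.99, while CD3D of the T cell receptor complex read 8.59 to 9.85 over the 6 arrays. The part of host cells in the differences of the interferon-stimulated genes was not tested.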

How the data were processed

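Total RNA of each tumour was extracted with Trizol and 500 ng labelled with a whole-transcript kit, per the labels' protocols. The values the authors deposited are log2 signals of probe sets. Per the submitters' processing notes, RMA (background correction, normalization and summary of probes) and Partek were used, with no version stated. For the array model, probe set definition and build, the sources used here give nothing. Genes were named through GEO's probe annotation and RefSeq gene IDs (GRCh38.p14), and 792 probe sets had no name. The 6 arrays were fitted as IR-A against control with limma 3.58.1 in R 4.3.3 (lmFit, eBayes), two-sided, adjusting p-values over all 24726 probe sets by Benjamini-Hochberg. Only this fit's SE and 95% intervals are printed. The script was tested on simulated data. Alternatives were other normalization, filters on dim probe sets, moderation and array weights, a replicate block, other thresholds and leaving out each tumour.

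The members and lists were chosen with earlier results of these data known. Every member is accounted for, and the 8 of largest difference and the 4 of smallest p are described in full, as are members named for their role; of the other lists the 2 of smallest p are named, and any further gene of them was chosen after its values were seen. Promoter letters came from RefSeq windows, printed for leading genes and for members that were not higher, a choice made with values known. Figures used matplotlib 3.10.9.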

Additional observations from a re-analysis of the deposited data

How the results depend on the processing

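The count of probe sets called in limma, 0 as reported, was 14 and 20 without the dimmest 25% and 50%, 11 with array weights, 18 at an adjusted p under 0.1, 3493 at an unadjusted p under 0.05, and 0 to 308 with 1 tumour left out (308 without control tumour 2). For interferon-stimulated genes it was 1 with either filter (IFITM2), 1 at an adjusted p under 0.1, 20 at an unadjusted p under 0.05, and 0 to 2 with 1 tumour left out (IFITM2 and IFITM3, without control tumour 2). Their median, 0.36, was 0.59 without the dimmest 50%, where 22 of the 48 were left, and 0.21 to 0.42 with 1 tumour left out. The counts at an unadjusted p and of separate groups were added after the data were seen. The first, 20, was 13 without the dimmest 50% (10.98% of all probe sets there) and 10 to 22 with 1 tumour left out (4.08% to 10.3%). The second, 17, ran from 17 to 27 with 1 tumour left out (10.7% to 16.3% of all probe sets), with 0 to 4 members lower. It could not fall, because groups that are separate stay separate with fewer tumours. Of the 48 genes, 37 kept their direction in all settings run on them, and the other 11 had differences of at most 0.14 in size. Filters on dim probe sets, other moderation and the replicate block leave each difference unchanged, so those settings could not reverse any gene. The 17 with separate groups were among the 37. Only other normalization could have reversed those 17, since leaving out or weighting tumours cannot change the sign of separate groups. Same-numbered tumours did not deviate together over all probe sets (correlations of -0.29, -0.36 and 0.02). With 3 tumours a group, whether the numbers pair tumours cannot be told from these values. Control tumour 2 and IR-A tumour 1 deviated together at 0.504, the highest value between groups. With the replicate number as a block, 0 probe sets and 0 members were called. In that setting 14 members were higher at an unadjusted p under 0.05 (29.2%, against 5.65% of all probe sets). Signal over background was not measured, so dim genes carry the least certain values.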

Other observations

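There were 14 pairs of members with at most 2 genes between them on a chromosome, some with like and some with unlike differences. By the order of protein-coding genes in RefSeq (GRCh38.p14), IFITM1 lies between IFITM2 and IFITM3 on chromosome 11, and differed by 0.23 where its neighbours differed by 2.14 and 2.50. On chromosome 12, OAS3 (0.62) lies between OAS1 (0.51) and OAS2 (-0.02). MX2 (-0.16) and MX1 (0.53) are neighbours on chromosome 21, as are IFIT1 (0.50) and IFIT5 (-0.07) on chromosome 10. GBP1 (0.87) and GBP2 (0.52) on chromosome 1, and PARP9 (0.88) and PARP14 (0.93) on chromosome 3 with 2 genes between them, had like differences. CMPK2 (0.01) and RSAD2 (-0.11) on chromosome 2 were both near 0. The other pairs were IFIT3 (0.41) with IFIT1 (0.50) and with IFIT2 (0.12), IFI44L (0.28) with IFI44 (0.09), HERC6 (0.14) with HERC5 (-0.09), and SAMD9 (0.23) with SAMD9L (-0.14). IFITM1, OAS2, MX1 and IFIT1 had means below the median probe set, where RMA compresses differences. Whether the IFITM probe sets separate those genes is not known. Whether neighbours differ from each other was not tested.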
